A study of Canis lupus familiaris with 15 samples.

Results

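The genes described here encode 8 small leucine-rich proteoglycans, namely DCN (decorin), BGN (biglycan), LUM (lumican), FMOD (fibromodulin), OGN (osteoglycin), ASPN (asporin), OMD (osteomodulin) and PRELP (prolargin), together with the large proteoglycan VCAN (versican). All 9 genes were taken by symbol, with every probeset that carried the symbol of 1 of them alone. They had 14 probesets, out of 42860 probesets tested and 15115 genes named on the array. BGN, LUM, FMOD, PRELP and VCAN had 2 probesets each, and the other 4 genes had 1. Where a gene had 2, it is described by the one with the higher mean, called the brighter probeset, and the other is called the dimmer probeset.

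Small leucine-rich proteoglycans are secreted proteins whose core is built of leucine-rich repeats, and many carry chondroitin, dermatan or keratan sulfate chains. In bone, skin, tendon and cartilage they bind collagen fibrils and set how wide and how evenly spaced those fibrils grow, and several bind growth factors of the TGF-beta family. Versican is a large chondroitin sulfate proteoglycan that binds hyaluronan and fills the loose matrix of growing and remodeling tissue. Osteosarcoma is a tumor of bone-forming cells, which lay down a collagen matrix called osteoid, and this matrix holds members of the family.

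The tumors were primary osteosarcomas of the limbs of 15 dogs, taken at amputation before any chemotherapy, and 1 Affymetrix Canine 2.0 array was run for each dog. The cohorts were defined by the disease-free interval (DFI), the time to metastatic disease after amputation and chemotherapy with doxorubicin or a platinum drug. The DFI < 100 cohort, under 100 days, held 8 dogs aged 4.4 to 10.8 years, of which 4 were spayed females and 4 castrated males. The DFI > 300 cohort, over 300 days, held 7 dogs aged 7.1 to 13.4 years, of which 3 were spayed females and 4 castrated males. The dogs were of mixed or pure breed, with 3 Greyhounds in the DFI < 100 cohort and 1 in the DFI > 300 cohort. Subtype and bone were read from the study's population table by dog number. In the DFI < 100 cohort 3 tumors were giant cell and 5 osteoblastic, and in the DFI > 300 cohort 6 were osteoblastic and 1 poorly differentiated. The DFI < 100 tumors lay in the humerus (4), femur (2) and tibia (2), and the DFI > 300 tumors in the humerus (2), radius (3) and femur (2).

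Values are log2 intensities, so a difference of 1 is a doubling. A probeset was taken as above background where its value passed 6.79, the 95th percentile of the reporter control probesets averaged over the arrays, and 33.9% of the tested probesets had a mean above it. The median intensity per array ran between 46.6 and 54.7. The ratio of 3' to 5' signal, a measure of RNA quality, was taken on the log2 scale and averaged over actin and GAPDH. This log2 ratio was 2.04 ± 0.49 in DFI < 100 tumors (SD, n = 8) and 1.90 ± 0.54 in DFI > 300 tumors (SD, n = 7). Of 8 osteoblast markers measured, 4 had a mean above background, and BGLAP, PHEX, DMP1 and MEPE, genes of the late osteoblast and osteocyte, did not. Their highest values in a single tumor were 12.42 for BGLAP, 7.71 for DMP1 and 7.07 for PHEX, above background, and 6.58 for MEPE, under it. In whole tumor tissue, fewer cells of a type and less RNA per cell cannot be told apart.

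DCN, BGN, LUM, OMD and VCAN were above background in all 15 tumors, OGN and ASPN in 13, FMOD in 4 and PRELP in 0. The spread between tumors was wide for the members above background in 13 or more tumors. It includes values under background for ASPN (2.78 and 6.77) and OGN (4.42 and 5.72). For DCN it includes the value of 8.04 in dog 180119, far below the rest. Over the 15 tumors the SD was 2.41 for ASPN, 1.79 for OGN, 1.44 for DCN, 1.10 for OMD, 0.92 for VCAN, 0.89 for LUM and 0.85 for BGN. The median SD was 0.50 over the 6448 genes with a mean above background. Of those genes, 99.8% had a smaller SD than ASPN, 99.2% a smaller SD than OGN, 98.0% a smaller SD than DCN and 88.5% a smaller SD than BGN.

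Decorin, which binds collagen type I and takes up TGF-beta, had values in the DFI < 100 tumors with a lowest of 10.44, a median of 12.18 and a highest of 13.44. In the DFI > 300 tumors they had a lowest of 8.04, a median of 12.61 and a highest of 13.25. The ranges overlapped, and 1 tumor stood far below the rest: dog 180119, with 8.04, where the next lowest DFI > 300 tumor had 12.11 and the lowest DFI < 100 tumor 10.44. Lumican, a keratan sulfate proteoglycan that also regulates collagen fibrils, ran from a lowest of 10.85 through a median of 12.38 to a highest of 13.28 in DFI < 100 tumors. In DFI > 300 tumors it ran from 11.44 through 13.10 to 13.48. Here dog 180119, at 11.44, was the lowest of its cohort but lay within the DFI < 100 range, and the lowest tumor of all was that of dog 212759.

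Asporin, a member of the decorin class that binds collagen and TGF-beta, varied most of the 9. Its values were 6.97, 9.72, 8.57, 10.54, 10.59, 7.87, 8.22 and 7.23 in the DFI < 100 tumors. In the DFI > 300 tumors they were 12.38, 2.78, 9.16, 8.67, 6.77, 11.54 and 11.35. The DFI > 300 tumors held both ends of the range, with dog 168327 the highest and dog 180119 the lowest of all 15 tumors. Osteoglycin, also called mimecan and found in bone matrix, had 8.03, 8.77, 7.52, 9.06, 10.39, 8.27, 7.97 and 10.11 in the DFI < 100 tumors. In the DFI > 300 tumors it had 11.37, 5.72, 8.34, 7.03, 4.42, 7.73 and 9.88. Again the DFI > 300 tumors spanned both ends, with dog 168327 highest and dog 190030 lowest. Osteomodulin, a keratan sulfate proteoglycan of mineralized matrix that osteoblasts make, had a lowest of 9.97, a median of 11.95 and a highest of 12.84 in DFI < 100 tumors. In DFI > 300 tumors it had a lowest of 9.14, a median of 11.27 and a highest of 12.73. The lowest OMD value was again that of dog 190030, and the highest was that of dog 212759.

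Biglycan, the close relative of decorin that is abundant in bone, had a lowest of 10.10, a median of 11.10 and a highest of 12.64 in DFI < 100 tumors. In DFI > 300 tumors it had a lowest of 10.77, a median of 11.68 and a highest of 12.86. Its dimmer probeset followed the brighter one with a Pearson's r of 0.82 over the tumors. Versican had a lowest of 7.67, a median of 9.70 and a highest of 9.93 in DFI < 100 tumors. In DFI > 300 tumors it had a lowest of 7.93, a median of 9.09 and a highest of 10.73. Dog 168327 was highest of all 15 tumors for both genes, as it was for OGN and ASPN, and dog 212759 was lowest for BGN, LUM and VCAN. The probesets of VCAN (r = 0.98), LUM (r = 0.98) and FMOD (r = 0.95) followed each other closely.

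Fibromodulin, a keratan sulfate proteoglycan of tendon and cartilage, passed the background level in dogs 153599 (7.14) and 208756 (7.17) of the DFI < 100 cohort and in dogs 168327 (7.35) and 190030 (8.73) of the DFI > 300 cohort. The other 11 tumors lay at 1.98 to 6.48. PRELP, which anchors basement membranes to the tissue beneath, lay between 5.76 and 6.69 in DFI < 100 tumors and between 5.44 and 6.12 in DFI > 300 tumors, all under the background level. The 2 PRELP probesets followed each other with an r of 0.37. The spread of FMOD therefore lies largely, and that of PRELP wholly, among values under background, though the 2 FMOD probesets had an r of 0.95.

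**Figure D1:**
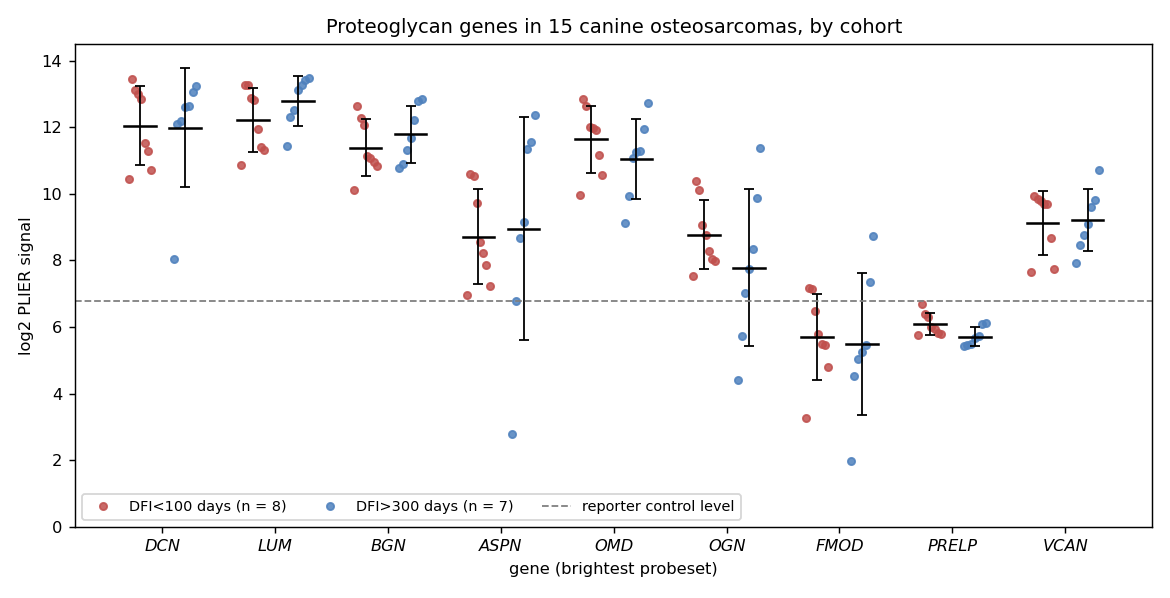
Log2 intensity of the brighter probeset of each of the 9 genes in every tumor, DFI < 100 (n = 8) left of DFI > 300 (n = 7), with 1 point per dog, the mean and SD of each cohort, and the background level of 6.79. The cohorts overlap for every gene, and the ASPN value of 2.78 and the DCN value of 8.04 belong to dog 180119.

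The comparison of the cohorts asked whether the genes differed between tumors of dogs with poor and good outcome. None of the 14 probesets had an adjusted p under 0.05 (limma, Benjamini-Hochberg over all 42860 probesets), where the share called over all probesets was 0.0%. At an unadjusted p under 0.05, 1 of 14 was called, the brighter probeset of PRELP, and the share over all probesets was 3.68% in either direction and 1.83% higher. No member separated the cohorts without overlap, as 0.0187% of all probesets did. By gene 5 differences were above 0 and 4 below, and by probeset 5 above and 9 below, where 49.1% of all probesets were below 0. The median over the genes was 0.064 beside 0.0059 over all probesets. With 1 dog left out the median lay between -0.070 (dog 208756) and 0.34 (dog 168327). PRELP averaged 6.09 ± 0.33 in DFI < 100 tumors and 5.71 ± 0.29 in DFI > 300 tumors (SD), a difference of 0.38 (SE 0.17, unadjusted p = 0.0447 and adjusted p = 0.999 by limma). Its dimmer probeset differed by -1.32 (SE 1.49), the other way. All of its values were under background.

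OGN averaged 8.77 ± 1.04 in DFI < 100 tumors and 7.78 ± 2.37 in DFI > 300 tumors. The difference was 0.98 with a 95% interval of -0.85 to 2.82, and it was 0.42 without dog 190030 and 1.58 without dog 168327. OMD averaged 11.64 in DFI < 100 tumors and 11.06 in DFI > 300 tumors, a difference of 0.58 with an interval of -0.56 to 1.72, and of 0.26 without dog 190030. LUM averaged 12.22 ± 0.96 in DFI < 100 tumors and 12.80 ± 0.75 in DFI > 300 tumors, a difference of -0.57 with an interval of -1.48 to 0.34, and of -0.38 without dog 212759. None of these 3 differences passed the spread between tumors. The BGN difference was -0.40 (interval -1.30 to 0.49) and its dimmer probeset gave -0.42. Without dog 212759 it was -0.22 for the brighter probeset.

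The sign of the remaining differences rested on single tumors. DCN differed by 0.064 (interval -1.48 to 1.61), and without dog 180119 by -0.59. ASPN differed by -0.24 (interval -2.81 to 2.34), by -1.26 without dog 180119 and by 0.34 without dog 168327. VCAN differed by -0.074 (interval -1.06 to 0.92) and by 0.18 without dog 168327. FMOD differed by 0.22 in the brighter and -0.41 in the dimmer probeset, and in the brighter one by 0.76 without dog 190030 and by -0.36 without dog 193231. The intervals of ASPN, DCN and FMOD hold differences of more than 1 in either direction, so that differences of that size were not excluded.

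**Figure D2:**
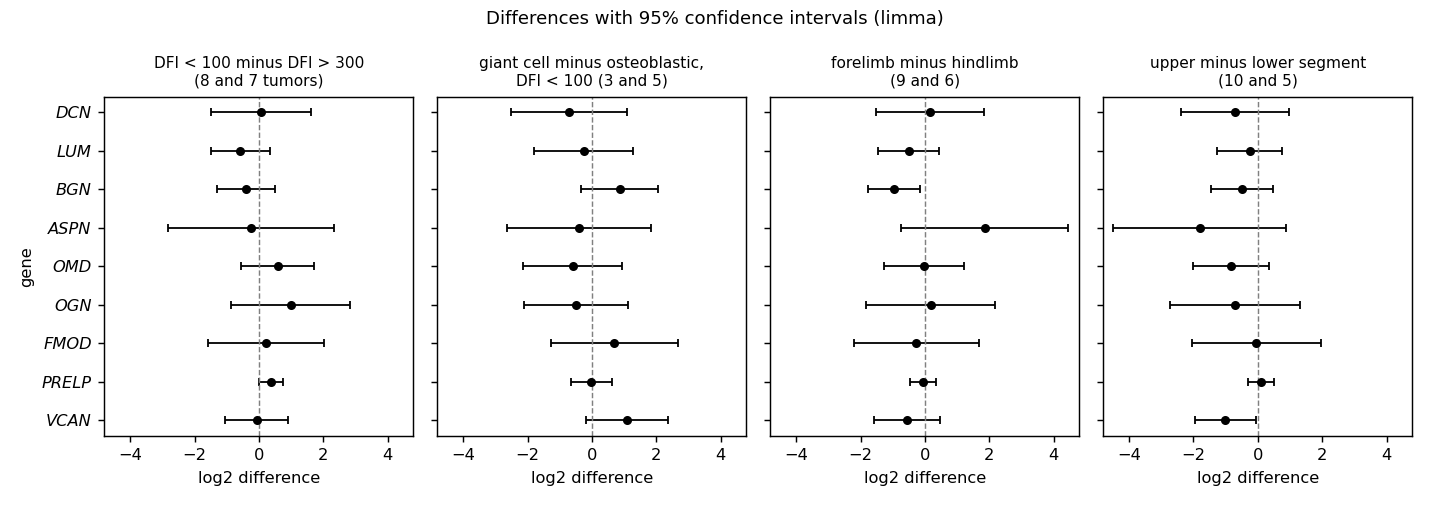
Difference in log2 intensity with its 95% interval for each gene in the 4 comparisons: DFI < 100 minus DFI > 300, giant cell minus osteoblastic, forelimb minus hindlimb, and upper minus lower limb segment. The intervals cross 0 for every gene but PRELP between cohorts, BGN between limbs and VCAN between segments, and none of these has an adjusted p under 0.05.

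Giant cell osteosarcoma, a subtype with many multinucleated cells, was present in the DFI < 100 cohort alone, so giant cell (3) and osteoblastic (5) tumors were compared within it. The VCAN values were 9.93, 9.78 and 9.70 in giant cell tumors and 8.67, 7.74, 9.70, 7.67 and 9.84 in osteoblastic tumors. The giant cell values were close together and the osteoblastic ones lay apart, and 2 of these 5 reached the giant cell values. The means were 9.81 ± 0.12 in giant cell and 8.72 ± 1.04 in osteoblastic tumors, a difference of 1.08 (SE 0.56, interval -0.20 to 2.37, adjusted p = 0.767 by limma). BGN had 12.06, 12.64 and 11.08 in giant cell tumors and 12.26, 10.85, 11.13, 10.10 and 10.95 in osteoblastic tumors. The BGN groups overlapped, and the difference was 0.87 (interval -0.33 to 2.06), with 0.19 for the dimmer probeset. It was 0.51 without dog 204714 and 1.29 without dog 208911. No member probeset had an adjusted p under 0.05, where 0.00933% of all probesets did, and none had an unadjusted p under 0.05, where 6.9% did. By gene 3 differences were above 0 and 6 below, and by probeset 6 above and 8 below, where 55.2% of all probesets were below 0. The median over the genes was -0.26 beside -0.051 over all probesets. The median was -0.64 without dog 204714 and 0.062 without dog 208911. The osteoclast markers, of which 5 of 7 were above background, had mean values of 8.90 to 9.37 in giant cell tumors and 5.77 to 8.55 in osteoblastic tumors, and their part in the VCAN and BGN values was not tested. The tibia tumors were both giant cell, so bone and subtype cannot be told apart for them.

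Between limbs the member with the smallest p was BGN. In the 9 forelimb tumors (humerus and radius) its lowest value was 10.10, its median 11.08 and its highest 12.86, and in the 6 hindlimb tumors (femur and tibia) its lowest was 10.95, its median 12.16 and its highest 12.80. The ranges overlapped, since dog 168327 with a radius tumor had the highest BGN of all. The means were 11.24 ± 0.82 in forelimb and 12.06 ± 0.68 in hindlimb tumors. With cohort as a covariate the difference was -0.96 (SE 0.38, interval -1.76 to -0.15, unadjusted p = 0.0235, adjusted p = 0.964 by limma), and the dimmer probeset gave -1.27 (unadjusted p = 0.0448). Within the cohorts it was -1.19 in DFI < 100 and -0.63 in DFI > 300. Of the 14 probesets 0 had an adjusted p under 0.05, as over all probesets (0.0%). At an unadjusted p under 0.05, 2 of 14 were lower, both of BGN, where the share of all probesets was 1.91% lower and 4.37% in either direction. The osteoclast markers averaged 7.38 in forelimb tumors (4.40 to 9.37) and 8.84 in hindlimb tumors (8.43 to 9.31), and the macrophage markers 7.71 in forelimb tumors (6.49 to 8.72) and 8.66 in hindlimb tumors (7.48 to 10.65). Their part in the BGN difference was not tested.

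No other member had an unadjusted p under 0.05 between limbs. LUM differed by -0.49 (interval -1.44 to 0.45), by -0.999 without dog 180119 and by -0.29 without dog 212759. VCAN differed by -0.55 (interval -1.58 to 0.48) and by -0.34 without dog 212759. ASPN differed by 1.85 (interval -0.73 to 4.44), but by 0.43 without dog 180119, whose femur tumor had the lowest value. DCN differed by -1.37 in the DFI < 100 cohort and by 2.30 in the DFI > 300 cohort, where the hindlimb tumors were those of dogs 180119 (8.04) and 180223 (12.63). A fit with an interaction of limb and cohort, added after the data were seen, gave -3.67 for the gap between those differences (SE 1.29, unadjusted p = 0.0137, adjusted p = 0.997 by limma). It was -1.37 (SE 1.03, unadjusted p = 0.207 by limma) without dog 180119. In that interaction DCN was the 1 of 14 probesets with an unadjusted p under 0.05, where the share over all probesets was 4.52%.

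Limb segments were compared as upper (humerus and femur, n = 10) against lower (radius and tibia, n = 5), with cohort as a covariate. By gene 8 of 9 differences, and by probeset 13 of 14, were below 0, where 48.1% of all probesets were. The median over the genes was -0.71, beside 0.012 over all probesets, and it was -0.32 without dog 168327, a radius tumor. The members share tumors and correlate with each other, so these counts are a description. No adjusted p was under 0.05 (0.0% of all probesets), and at an unadjusted p under 0.05, 1 of 14 was lower, where the share over all probesets was 1.16% lower and 2.9% in either direction.

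The called probeset was the brighter one of VCAN. Its values in the lower segment were 9.93 and 9.78 in the tibia and 10.73, 9.60 and 9.09 in the radius. In the upper segment the lowest was 7.67, the median 8.72 and the highest 9.84. All 5 lower segment values were thus above the upper median, and the ranges overlapped. The means were 8.83 ± 0.88 in upper and 9.83 ± 0.60 in lower segment tumors, a difference of -1.02 (SE 0.44, interval -1.97 to -0.072, unadjusted p = 0.0368, adjusted p = 0.999 by limma). The difference was -0.97 within DFI < 100 and -1.06 within DFI > 300, and the dimmer probeset gave -0.89 (unadjusted p = 0.0605 by limma). The lower segment tumors were the 2 of the tibia, both giant cell, in DFI < 100 and the 3 of the radius in DFI > 300. For these tumors segment cannot be told apart from bone, nor in the tibia from subtype. By bone VCAN averaged 8.53 ± 0.95 in the humerus (n = 6), 9.27 ± 0.64 in the femur (n = 4), 9.81 ± 0.84 in the radius (n = 3) and 9.86 ± 0.11 in the tibia (n = 2). The humerus mean was the lowest, and the ranges of the humerus and the femur overlapped, as did those of the femur and the radius and of the radius and the tibia. ASPN differed by -1.81 between segments (interval -4.51 to 0.88), by -0.91 without dog 180119 and by -2.85 without dog 153599. OMD differed by -0.83 (interval -2.02 to 0.36) and by -0.55 without dog 168327.

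**Figure D3:**
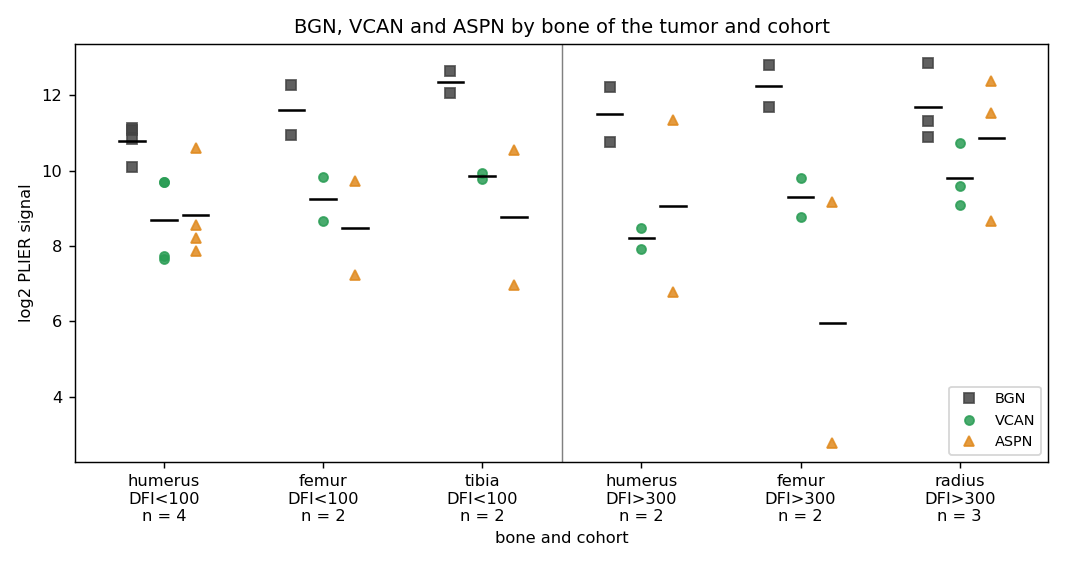
Log2 intensity of BGN, VCAN and ASPN by bone of the tumor, DFI < 100 tumors left of DFI > 300 tumors, with 1 point per dog and a line at each mean. The VCAN mean is lowest in humerus tumors, at 8.53 over both cohorts, and the ASPN value of 2.78 in the femur is that of dog 180119.

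Which members moved together was asked over the 36 pairs of genes in all 15 tumors, with Pearson's r and Spearman's rho. The median r was 0.21, 28 of 36 pairs had an r above 0, and 2 pairs had an adjusted p under 0.05 (permutation test with 100000 resamples, 2-sided, Benjamini-Hochberg over the 36 pairs). DCN and LUM had an r of 0.81 (permutation p = 0.00022, adjusted p = 0.00792) and a rho of 0.87 (adjusted p = 0.00216). Without the 2 tumors farthest from the DCN median, those of dogs 208911 and 180119, r was 0.92. It was 0.93 within DFI < 100 and 0.90 within DFI > 300. OGN and OMD had an r of 0.78 (permutation p = 0.00048, adjusted p = 0.00864) and a rho of 0.70 (adjusted p = 0.0929). Without the 2 tumors farthest from the OGN median, those of dogs 168327 and 190030, r was 0.61, and it was 0.40 within DFI < 100 and 0.97 within DFI > 300. The gap between the cohorts in this r was not tested. Without dog 190030 the number of pairs with an adjusted p under 0.05 was 6, and without dog 223986 it was 4.

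ASPN joined the second pair less closely. Its r was 0.67 with OGN (adjusted p = 0.0787 by permutation) and 0.62 with OMD (adjusted p = 0.09 by permutation). Its r with DCN was 0.68 (adjusted p = 0.0788 by permutation), but the rho was 0.37 and r was 0.32 without dog 180119, so the relation with DCN rested on that tumor. BGN had an r of 0.56 with FMOD, 0.51 with LUM and 0.40 with VCAN. With its close relative DCN its r was 0.21, and with OGN, ASPN and OMD it lay between -0.039 and 0.085. VCAN had an r of -0.011 with DCN and of 0.22 with LUM. The highest r of BGN or VCAN with a member of the 2 correlated pairs was 0.51, that of BGN with LUM.

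**Figure D4:**
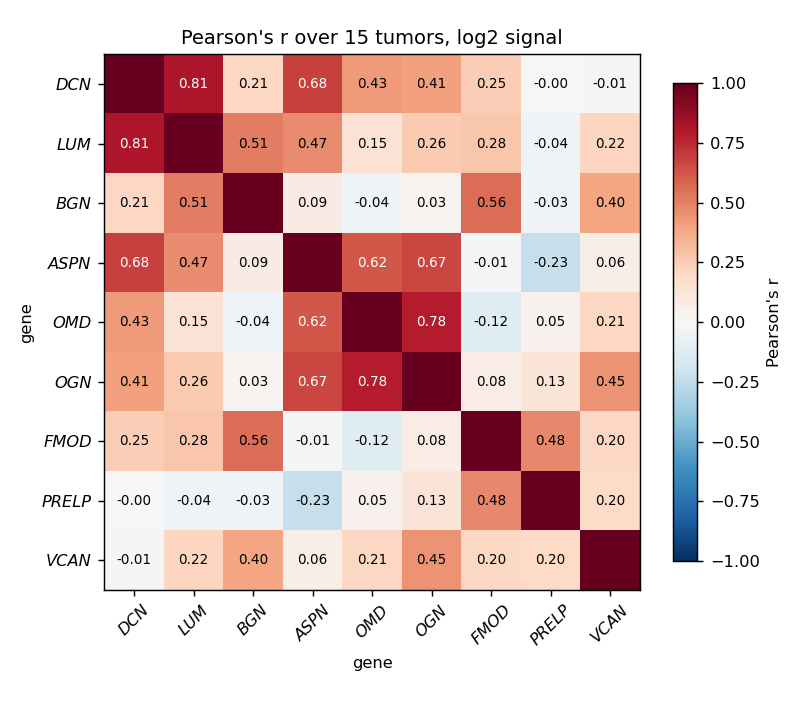
Pearson's r over the 15 tumors for each of the 36 pairs of genes. The highest values are those of DCN with LUM (0.81) and OGN with OMD (0.78). The r of ASPN is 0.62 to 0.68 with DCN, OGN and OMD, none with an adjusted p under 0.05, and that with DCN is 0.32 without dog 180119.

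In the dog genome, as RefSeq annotates it in the UU_Cfam_GSD_1.0 assembly, DCN and LUM are neighbors with no protein-coding gene between them, and so are FMOD and PRELP. OMD lies between OGN and ASPN. The 5 pairs of genes within these clusters had r between 0.48 and 0.81, and 4 of the 5 were at 0.6 or more. The other 31 pairs had r between -0.23 and 0.68, and 1 of 31, DCN with ASPN, was at 0.6 or more. Without dog 180119 the r was 0.597 for OGN with ASPN, 0.556 for ASPN with OMD and 0.32 for DCN with ASPN. It was then 0.92 for DCN with LUM and 0.75 for OGN with OMD. The r of 0.48 was that of FMOD with PRELP, which lay largely and wholly under background. As a background, 0.993% of genes with a mean above background had an r of 0.6 or more with DCN, 1.09% with LUM, 2.33% with OGN, 2.73% with OMD and 1.78% with ASPN. Ranked by r among 6447 genes, LUM was in place 3 for DCN and DCN in place 3 for LUM. OMD was in place 6 for OGN, and OGN in place 13 for OMD. The ASPN pairs of that cluster ranked lower, with ASPN in place 52 for OGN and 145 for OMD, and OGN in place 51 and OMD in place 90 for ASPN.

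The genes whose values followed each member most closely are given by r over the 15 tumors, with no test. For ASPN they were PTN, the heparin-binding growth factor pleiotrophin (r = 0.93, rho = 0.91), and HAPLN1, the link protein that fixes aggrecan and versican to hyaluronan (r = 0.88). For LUM they were 2 collagen chains, COL3A1 (r = 0.84) and COL5A2 (r = 0.81), level with DCN. For DCN the highest r was that of MAGED1 (0.91), but its rho was 0.64 and its r 0.75 without dog 180119, whereas the r of LUM with DCN was 0.92 without it. For BGN they were SSH3 (r = 0.86), the secreted matrix protease HTRA1 (r = 0.84) and the secreted glycoprotein MFGE8 (r = 0.84). For OMD they were SH3PXD2B (r = 0.90), CKAP4 (r = 0.89) and FKBP11 (r = 0.87). For OGN they were HDAC2, UTRN and ABCF1 (r between 0.80 and 0.81), and for VCAN the LIM-domain protein FHL2 (r = 0.78). For FMOD and PRELP, largely or wholly under background, the highest r was 0.81 with STK38L and 0.74 with DERA.

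Each member was also set beside the mean value of markers for 10 cell types, which gave 90 relations. Of these, 2 had an adjusted p under 0.05 (permutation test with 100000 resamples, Benjamini-Hochberg over 90). ASPN followed the cartilage markers with an r of 0.82 (adjusted p = 0.009 by permutation), a rho of 0.75 (adjusted p = 0.0765) and an r of 0.65 without the 2 tumors farthest from the median. OGN followed them with an r of 0.80 (adjusted p = 0.0229 by permutation), a rho of 0.78 (adjusted p = 0.0765) and an r of 0.61 without such tumors. Without HAPLN1 in the list the r was 0.77 for ASPN and 0.78 for OGN. Both calls were lost with 16 added to each intensity, where r was 0.77 for ASPN and 0.75 for OGN, and in osteoblastic tumors only, where r was 0.81 for ASPN and 0.84 for OGN. Of 10 cartilage markers measured, ACAN, HAPLN1 and COMP had a mean above background, while SOX9 and COL2A1, which define cartilage cells, did not. SOX9 ran from 0.92 to 8.13 and COL2A1 from -7.61 to 10.85, so both passed background in at least 1 tumor. The list mean includes values far under background, such as -7.98 for CNMD in dog 180119. Single markers differed, with an r of -0.37 for MATN1 and 0.26 for SOX9 with ASPN, and of -0.60 for MATN1 and 0.48 for SOX9 with OGN. The number of relations with an adjusted p under 0.05 was 0 without dog 180119, 0 without dog 208513 and 1 without dog 208756. For ASPN the r was 0.72 without dog 180119 and 0.80 without dog 208513, and for OGN it was 0.76 without dog 180119 and 0.79 without dog 208513.

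DCN went against the macrophage markers, of which 8 of 10 were above background, with an r of -0.73 (adjusted p = 0.0927 by permutation). Without dog 180119 the r was -0.46. That tumor, a femoral osteoblastic one, had the highest value of 7 of the 10 macrophage markers, a macrophage mean of 10.65 and the lowest cartilage mean of all tumors at 2.86. Its fibroblast mean was 7.38, the lowest but 1. BGN had an r of 0.64 and FMOD an r of 0.62 with the fibroblast markers, of which 8 of 12 were above background (adjusted p = 0.155 by permutation for both). The same adjusted p of 0.155 by permutation went with an r of -0.64 for ASPN and the macrophage markers (-0.34 without dog 180119). It also went with 0.62 for OMD and the cartilage markers and -0.61 for OMD and the endothelium markers. Without the 2 tumors farthest from the median of the marker mean, r was 0.27 for OMD with cartilage and 0.44 for BGN with fibroblast markers. It was then 0.69 for FMOD with fibroblast, -0.58 for OMD with endothelium and -0.67 for ASPN with macrophage markers. With the osteoblast markers the r of the 9 members lay between -0.25 and 0.17. The part of each cell type in the members' values was not tested.

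**Figure D5:**
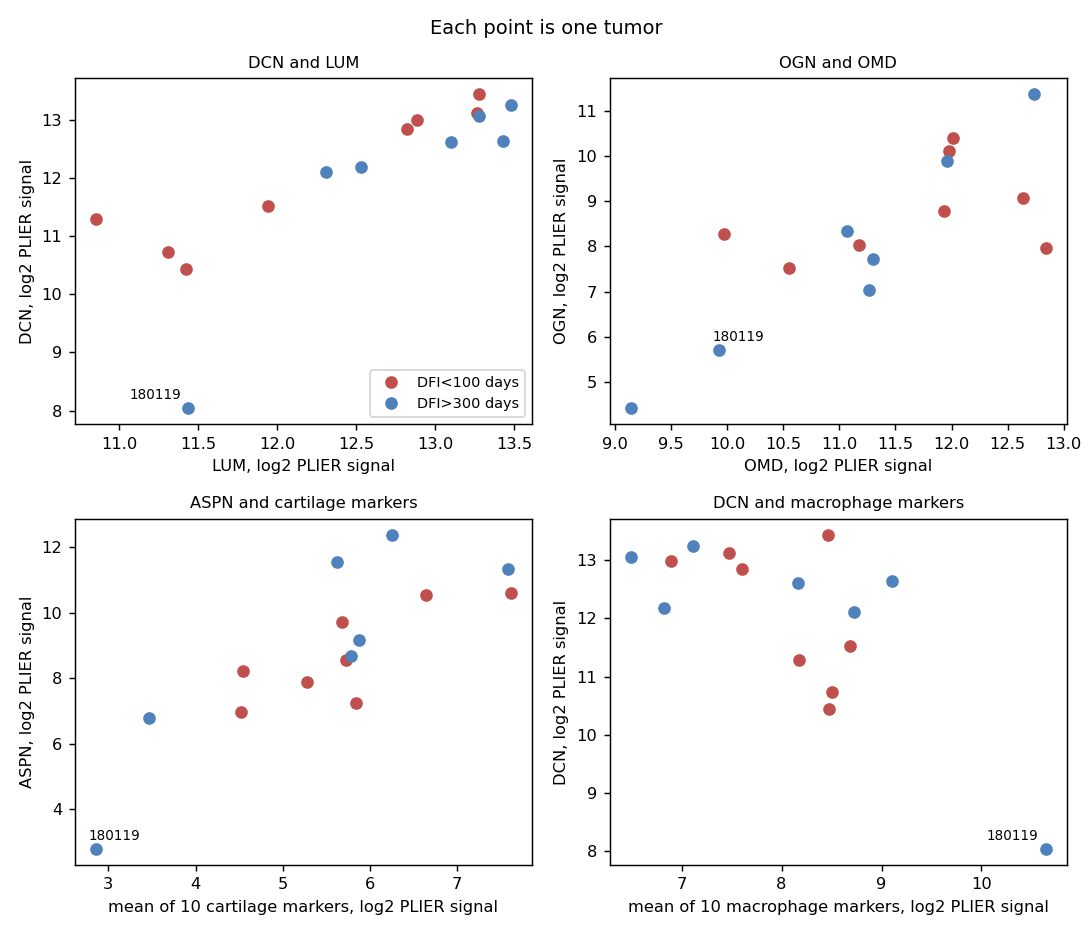
Log2 intensities of DCN against LUM, of OGN against OMD, of ASPN against the mean of the cartilage markers and of DCN against the mean of the macrophage markers, with 1 point per tumor and the cohort marked. Dog 180119 lies apart in the macrophage panel, at a macrophage mean of 10.65 and a DCN value of 8.04.

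The genes that work with the proteoglycans were compared between the cohorts by list. None of the genes in the 7 lists had an adjusted p under 0.05 (limma). At an unadjusted p under 0.05, 3 of the 118 measured genes were called between cohorts (2.54%, beside 3.68% of all probesets), namely FBLN1, ADAMTS4 and the cell-surface proteoglycan SDC1, which differed by -0.88 (unadjusted p = 0.0277 by limma) at a mean under background. Among 19 measured fibrillar collagens and fibril partners 4 differences were above 0 and 15 below, where 49.1% of all probesets were below 0. The median was -0.31 beside 0.017 over all genes. The genes share tumors, so these counts are a description. Within that list FBLN1, a matrix protein that binds versican, differed by -1.01 (SE 0.40, unadjusted p = 0.022 by limma). Among 13 proteases that cut proteoglycan cores 7 were above 0 and 6 below, with a median of 0.086, and ADAMTS4, an aggrecanase that also cleaves versican, differed by 0.79 (SE 0.23, unadjusted p = 0.0037 by limma). The other 5 lists had medians between -0.17 and 0.12. They were 8 further small leucine-rich proteoglycans (5 above 0, 3 below), 23 further proteoglycan core proteins (10 and 13), 27 genes of glycosaminoglycan synthesis (15 and 12), 12 genes of hyaluronan and its binding proteins (8 and 4) and 16 signaling partners (5 and 11). Between limbs 4 of the 118 were called (3.39%, beside 4.37% of all probesets). The signaling partners LRP1 (-0.85, unadjusted p = 0.0273) and TGFB1 (-0.65, unadjusted p = 0.0368), the cell-surface proteoglycan SDC4 (-0.81, unadjusted p = 0.0394) and the microfibril collagen COL6A3 (-1.10, unadjusted p = 0.0239) had forelimb minus hindlimb differences below 0 in the same fit as BGN, each with an adjusted p of 0.964 by limma.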

How the data were processed

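Total RNA of 15 canine tumors was measured on Affymetrix Canine 2.0 arrays, 1 per dog. The authors selected RNA by integrity and hybridized the arrays in 2 batches. They took out 1 sample found on review not to be osteosarcoma, and they summarized probes with PLIER in Affymetrix Expression Console. As deposited, the values are intensities on a linear scale. How probes were normalized, the software version and which array was in which batch were not given in the sources used here. Batches could therefore not be compared. RMA values and qRT-PCR were not analysed here.

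Of 43035 probesets, 175 controls were left out, and the remaining 42860 were put on the log2 scale without an offset. Of these, 29254 carried 1 symbol of the platform annotation, 439 several and 13167 none. Comparisons used limma 3.58.1 in R 4.3.3, with Benjamini-Hochberg over the 42860 probesets and cohort as a covariate for limb and segment. In the text, "adjusted p" is this value unless pairs or relations are named. Correlations used numpy 2.4.6, with ranks from scipy 1.17.1, and 100000 resamples, or fewer where 1 dog was left out. A gene was represented by its probeset with the highest mean. The genes named are all 9 members, the 3 genes most alike each, and for each related list up to 3 genes with the smallest p between cohorts or limbs. Members, lists and tests were chosen with earlier results of these data known. Subtype and bone are not in the sample labels. Scripts were tested on simulated data. Precision is limited by the number of arrays, since arrays have no depth.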

Additional observations from a re-analysis of the deposited data

Results flagged for a closer look

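Of 46 groups of 4 to 10 tumors, 3 held a tumor far from the others of its group, where chance gives about 1 in 20. DCN in the DFI > 300 cohort was 8.04 in dog 180119, and the next lowest of the 7 tumors had 12.11, a gap of 0.78 of the group's range. ASPN in the 10 upper segment tumors was 2.78 in the same dog, with 6.77 the next lowest and a gap of 0.466 of the range. The dimmer PRELP probeset in the DFI < 100 cohort was -7.40 in dog 208911, with 1.04 the next lowest of the 8 tumors, and all of its values were under background.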

How the results depend on the processing

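No member probeset had an adjusted p under 0.05 in any of the 4 comparisons under any alternative run or with any dog left out. The methods' own unpaired test was run by p alone, without the fold change limit that the paper set beside it. It called 1 of the 14 member probesets between cohorts at the unadjusted threshold, beside 1567 of all probesets. After Benjamini-Hochberg it called 0 of either. The sign of the cohort difference turned for FMOD with the mean of its probesets (-0.095) and in osteoblastic tumors only (-0.12), for PRELP with the mean of its probesets (-0.47), for ASPN with limb as a covariate (0.16) and without Greyhounds (0.12), and for DCN without Greyhounds (-0.078). With 1 dog left out it ran between -0.59 and 0.29 for DCN, -1.26 and 0.34 for ASPN, -0.28 and 0.18 for VCAN, and -0.36 and 0.76 for FMOD, and kept its sign for BGN, LUM, OGN, OMD and PRELP. The pairs with an adjusted p under 0.05 were 1 in osteoblastic tumors only and 2 to 6 with 1 dog left out. The relations with marker lists, whose alternatives were chosen after seeing the data, were 0 with 16 added to each intensity, 0 in osteoblastic tumors only and 0 to 3 with 1 dog left out. The cause of these changes was not tested. Under an alternative 364 values were labelled the same, 6 reversed, 5 weaker, 1 stronger and 3 moved. With 1 dog left out 541 were labelled the same, 14 reversed, 6 weaker, 6 stronger and 5 moved. A single difference or r was the same where it kept its direction and its side of the threshold. Counts and medians were labelled by the size of their change, so a median labelled the same could turn its sign.

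Dog numbers were not shared between cohorts. No paired analysis was possible because each dog gave 1 tumor. FMOD lay largely and PRELP wholly under background, so their differences are poorly measured. The subtype comparison had 3 against 5 tumors, and giant cell tumors were in 1 cohort.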
